A study of Homo sapiens with 60 samples.

Results

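The 10 genes described here handle heme and iron in the liver cell: HMOX1, FTH1, FTL, HAMP, TFRC, TF, TFR2, SLC40A1, SLC11A2 and ID1. They were chosen by name from their known roles, with earlier results of these data known, and are 10 of the 60675 genes in the count table. Counts and medians over the 10 therefore describe a chosen list. All 10 were among the 16517 genes with enough counts for a test. Their levels were read in 20 treatment groups of HepG2 cells, which derive from a human liver carcinoma and keep many hepatocyte functions, with 3 RNA-seq libraries per group taken after 24 h. Water extracts of 6 medicinal herbs were each given at 3 doses. The doses of Aucklandiae Radix, Schisandrae Fructus, Zizyphi Semen, Longan Arillus and Liriopis seu Ophiopogonis Tuber were 20, 100 and 500 µg/mL. Polygalae Radix was given at 18, 90 and 450 µg/mL. These doses are called low, medium and high here. Wortmannin, an inhibitor of phosphoinositide 3-kinases, was the positive control at 10 µM. The vehicle was DMSO, given as 0.1% in the sample labels and as 2% in the series' design text. All groups are the same cell line, and no group carries a genetic change.

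Library totals lay between 20209694 and 36410588 counts, with a median of 25762969. All 8 hepatocyte markers were detected in every library, with ALB, the serum albumin gene, between 6220 and 8760 CPM (the gene's count scaled to a common library size) and AFP, the alpha-fetoprotein gene, between 1650 and 3520 CPM. HBB of red cells and PTPRC of blood cells were at 0 in all 60 libraries. Some other markers were low but detected in every library. Another red-cell marker lay between 0.396 and 1.89 CPM, CD14 of macrophages between 1.15 and 2.99, and PECAM1 of endothelium between 2.23 and 4.63 CPM. CD68, a macrophage marker that many other cells also express, lay between 33.7 and 58.9 CPM. The summed hepatocyte markers lay between 38400 and 40700 CPM with high-dose Aucklandiae, 37300 and 38100 with high-dose Polygalae, 44600 and 46200 with high-dose Schisandrae, 50000 and 51900 with wortmannin, and 43300 and 45100 CPM in the vehicle. The 12 markers of other cell types summed to 64.5 to 67.4 CPM with high-dose Aucklandiae, 58.8 to 63.9 with high-dose Schisandrae and 51.8 to 54.6 CPM in the vehicle, most of it CD68, and the part of either list in the results was not tested. Sample codes place the libraries in 5 sets. The vehicle and wortmannin each have a set of their own, and 3 sets hold 2 extracts each (Aucklandiae with Polygalae, Schisandrae with Liriopis, Zizyphi with Longan). The labels do not explain the sets. No other group shares one with the vehicle, so set and treatment cannot be told apart in a comparison with it. Comparisons of high with low dose, and of the extracts that share a set, stay within a set. Earlier work on these data set 4 libraries apart by the slope of their values on GC content, namely replicate 1 of the vehicle, replicate 1 of the Liriopis low dose, replicate 2 of the Schisandrae low dose and replicate 3 of the Aucklandiae medium dose. The main results below that depend on them are given with and without them, and the calls at the medium and low doses mostly as a total.

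Heme oxygenase 1, the product of HMOX1, opens the heme ring and sets iron free, and its gene is held down by the repressor BACH1 and switched on by NRF2, the product of NFE2L2. Freed iron is stored in ferritin, a shell built of heavy (FTH1) and light (FTL) chains. Iron enters the cell as iron-loaded transferrin (TF) through transferrin receptor 1 (TFRC), crosses the endosomal membrane through the transporter DMT1 (SLC11A2), and leaves through ferroportin (SLC40A1). Hepcidin, the hormone made from HAMP chiefly by hepatocytes, binds ferroportin and causes its breakdown. HAMP is driven by bone morphogenetic protein (BMP) signals through SMAD factors, which also drive ID1, and by interleukin 6 through STAT3. Transferrin receptor 2 (TFR2) senses loaded transferrin and takes part in the control of HAMP.

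Several of these messages carry an iron-responsive element, a short hairpin that iron regulatory proteins bind when iron is scarce. Binding near the start of a message blocks its translation, and binding after the coding part of TFRC protects that message from decay. The sequences are shown because this layer of control acts partly on protein output, which counts of mRNA do not measure. A search of the untranslated regions of GENCODE release 29 transcripts (GRCh38) looked for an unpaired C, 5 bases, the letters CAGTGN, and 5 bases able to pair with the 5 before it. Here N was A, C or T but not G, and pairs of G with T were allowed. The search found a match in 123 of 19666 protein-coding genes, or 0.625%, and in 5 of the 10 genes described here. Only exact matches were counted, so elements that depart from this pattern were missed. A gene without a match, such as SLC11A2, is therefore not shown to lack an element. The capitals mark the unpaired C and the CAGTGN loop, and each sequence is the message strand read 5′ to 3′.
FTH1, 5′ UTR, chr11:61967574-61967602, minus strand: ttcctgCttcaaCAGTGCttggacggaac
FTL, 5′ UTR, chr19:48965335-48965363, plus strand: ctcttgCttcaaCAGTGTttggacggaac
SLC40A1, 5′ UTR, chr2:189580661-189580689, minus strand: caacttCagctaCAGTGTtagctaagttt
TFRC, 3′ UTR, chr3:196050463-196050491, minus strand: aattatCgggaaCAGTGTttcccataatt
TFRC, 3′ UTR, chr3:196050979-196051007, minus strand: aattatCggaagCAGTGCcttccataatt
The search found 4 such elements in the 3′ UTR of TFRC, of which those shown are the outermost. It also found a match in the long annotated 3′ UTR of TF. The letters are not evidence of binding in these cells.

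HMOX1 (ENSG00000100292, chromosome 22, 35380361 to 35394214, plus strand) rose to its highest level with high-dose Aucklandiae, and both ferritin chains rose with it. HMOX1 had 104, 114 and 104 CPM in the high-dose Aucklandiae libraries, against 51.2, 57.2 and 58.5 CPM in the vehicle libraries. All 3 treated libraries lay far above the vehicle. The means were 107 ± 5.88 and 55.6 ± 3.88 CPM (SD, n = 3 each), a log2 fold change of 0.95 ± 0.06 (± standard error), with an edgeR adjusted p of 3.3e-16. Without the 4 libraries set apart by GC slope, the log2 fold change of HMOX1 was 0.88. In bulk RNA, fewer cells of a type and less RNA per cell cannot be told apart, and a CPM is a share of the library's counts.

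FTH1 (ENSG00000167996, chromosome 11, 61959718 to 61967660, minus strand), the ferritin heavy chain with the iron-oxidizing site, had 2820, 2780 and 2690 CPM with high-dose Aucklandiae, against 1440, 1560 and 1470 CPM in the vehicle. The groups did not overlap. The log2 fold change of FTH1 was 0.89 ± 0.17 (edgeR adjusted p = 7.71e-05). FTL (ENSG00000087086, chromosome 19, 48965301 to 48966878, plus strand), the light chain that helps form the iron core, had 9350, 10600 and 9590 CPM, against 6470, 6430 and 6620 CPM in the vehicle. Again no treated library reached down to the vehicle, and the log2 fold change of FTL was 0.60 ± 0.15 (edgeR adjusted p = 0.0014). FTH1 shares 1267 exonic bases with BEST1 on the other strand, and the strand setting of the counting is not given. BEST1 held 9.77 ± 0.163 CPM with high-dose Aucklandiae and 3.89 ± 0.295 CPM in the vehicle (SD, n = 3 each), both small beside FTH1. The 25 annotated FTH1 pseudogenes together held 0.311% of the CPM of FTH1 and its pseudogenes with high-dose Aucklandiae and 0.398% in the vehicle. For FTL the 16 pseudogenes held 0.0795% and 0.0792%.

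Of the 10 genes, 6 rose and none fell with high-dose Aucklandiae against the vehicle, where 26.1% of all tested genes passed the test (13.6% higher, 12.5% lower). Beside the 3 above, these were TFRC, SLC40A1 and SLC11A2. The groups did not overlap for 6 of the 10, against 42.3% of all tested genes. The median log2 fold change of the 10 was 0.25, and that of all tested genes was 0.000. HAMP (ENSG00000105697, chromosome 19, 35280716 to 35285143, plus strand), the hepcidin gene, had 22.6, 23.6 and 19.1 CPM with high-dose Aucklandiae, against 21.7, 22.3 and 24.2 CPM in the vehicle. These values overlapped. The log2 fold change of HAMP was -0.06 ± 0.15 (edgeR adjusted p = 0.808).

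**Figure D1:**
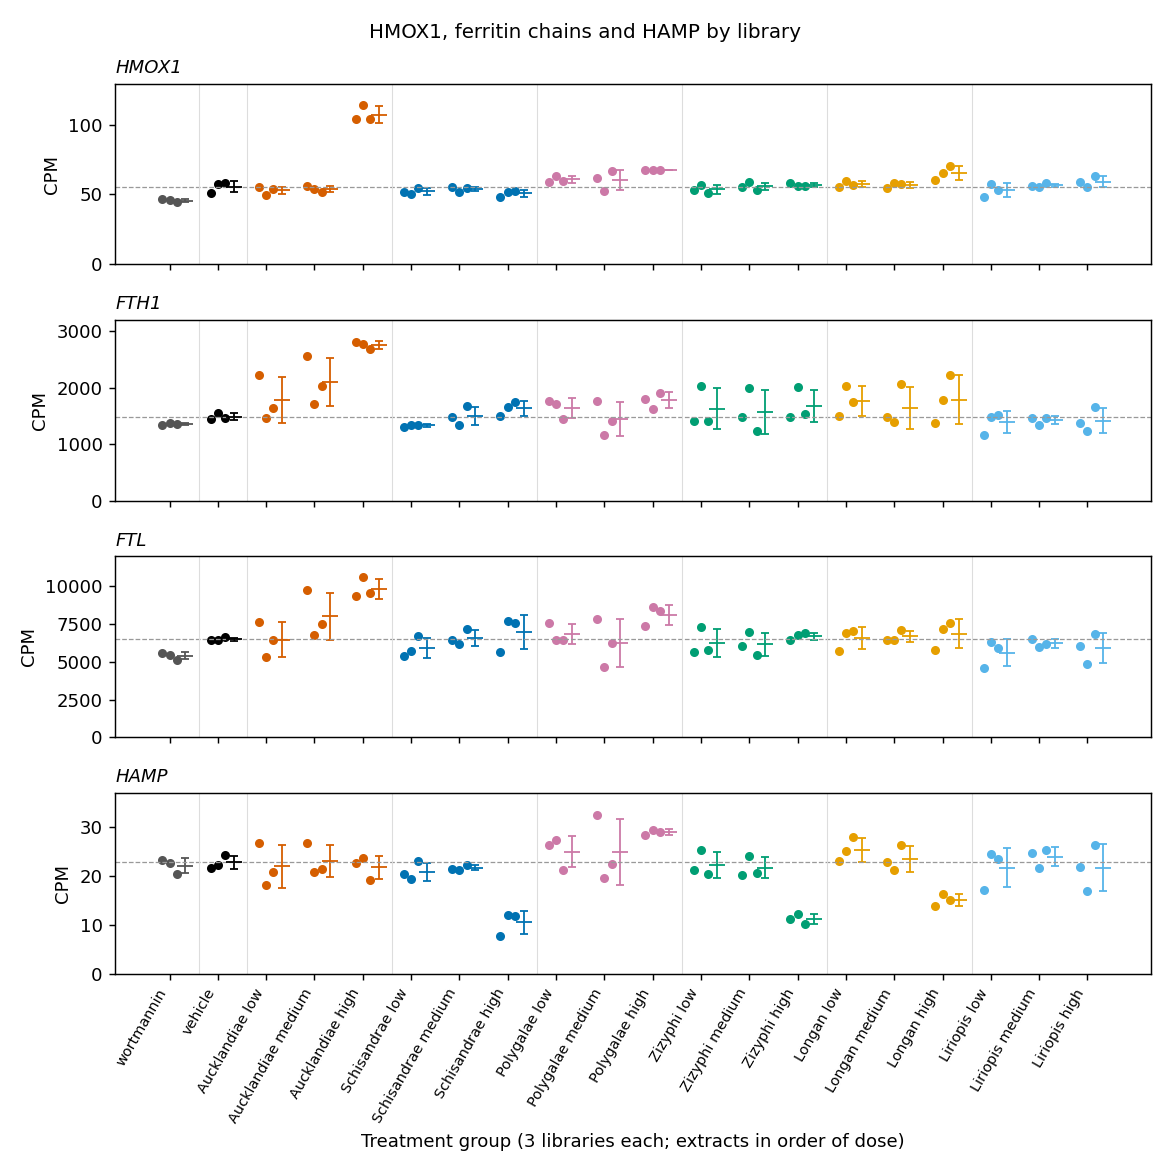
CPM (vertical axes, from 0) of HMOX1, FTH1, FTL and HAMP in each of the 60 libraries, by treatment group (horizontal axis), with extracts from low to high dose. Points are libraries, the bar beside them is the mean ± SD of 3, and the dashed line is the vehicle mean. HMOX1 stands out at 107 CPM with high-dose Aucklandiae, while HAMP is lowest with the high doses of Schisandrae (10.5 CPM), Zizyphi (11.2 CPM) and Longan (15 CPM).

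Along the Aucklandiae doses HMOX1 and the ferritins did not take the same course. HMOX1 averaged 55.6 ± 3.88 CPM in the vehicle, 52.9 ± 2.69 at the low dose, 53.8 ± 2.32 at the medium dose and 107 ± 5.88 at the high dose (SD, n = 3 each). Its vehicle, low-dose and medium-dose libraries overlapped, and the high dose stood alone. FTH1 averaged 1490 ± 62.1, 1780 ± 404, 2110 ± 425 and 2760 ± 65 CPM in the same order. The low- and medium-dose groups of FTH1 were widely spread: replicate 1 was high at both doses, with 2230 and 2560 CPM, and replicate 2 low, with 1460 and 1720 CPM. FTL averaged 6510 ± 102, 6470 ± 1180, 8020 ± 1570 and 9850 ± 669 CPM, and its medium-dose replicate 1, at 9780 CPM, reached into the range of the high dose. Against the vehicle, neither ferritin passed the test at the medium dose (edgeR adjusted p = 0.0756 for FTH1 and 0.238 for FTL). Over the alternative settings these ran from 4.45e-13 to 0.278 for FTH1 and from 0.0001 to 0.399 for FTL. Both low ends come from the fit with no filter on low counts.

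Within the set, high-dose Aucklandiae was also above the low dose. Of the 10 genes, 4 rose and 1 fell, where 14.9% of all tested genes passed the test (7.77% higher, 7.14% lower). HMOX1 had 104, 114 and 104 CPM at the high dose, against 55, 49.9 and 53.9 CPM at the low dose, a log2 fold change of 1.02 ± 0.06 (edgeR adjusted p = 4.31e-17). FTH1 rose by 0.64 ± 0.17 and FTL by 0.61 ± 0.15 on the log2 scale (edgeR adjusted p = 0.00697 and 0.00199). For FTH1 the call rested on low-dose replicate 2: without it the log2 fold change was 0.51, with an edgeR adjusted p of 0.0699. SLC40A1, the iron exporter, rose by 0.33 ± 0.05. TF, the carrier of iron in plasma, fell by 0.21 ± 0.05 on the log2 scale (edgeR adjusted p = 0.00129).

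With high-dose Polygalae, the extract that shares the Aucklandiae set, HMOX1 had 67.2, 67.3 and 67.6 CPM, against 51.2, 57.2 and 58.5 CPM in the vehicle. The 3 treated libraries were nearly equal and all above the vehicle, and the log2 fold change was 0.28 ± 0.07 (edgeR adjusted p = 0.00145). In that comparison 2 of the 10 genes rose, HMOX1 and SLC40A1, and 1 fell, TFR2, where 20.1% of all tested genes passed the test (10.2% higher, 9.94% lower). The groups did not overlap for 9 of the 10, against 39.5% of all tested genes. None of HMOX1, SLC40A1 and TFR2 passed edgeR's test between the high and low dose of Polygalae. HMOX1 averaged 60.7 ± 2.5 CPM at the low and 60.3 ± 7.14 CPM at the medium dose (SD, n = 3 each). FTL had 7360, 8630 and 8370 CPM, against 6470, 6430 and 6620 CPM in the vehicle, without passing the test (log2 fold change 0.32 ± 0.15, edgeR adjusted p = 0.116, and 8.33e-06 to 0.22 over the alternative settings). HAMP had 28.3, 29.5 and 28.9 CPM, against 21.7, 22.3 and 24.2 CPM in the vehicle, the highest mean of HAMP in any group. Its log2 fold change of 0.35 ± 0.15 did not pass the test (edgeR adjusted p = 0.0968), and its adjusted p ran from 0.000637 to 0.234 over the alternative settings.

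Set directly against each other at the high dose, Aucklandiae at 500 µg/mL was above Polygalae at 450 µg/mL for HMOX1, by 0.67 ± 0.06 on the log2 scale (edgeR adjusted p = 1.62e-11), and for FTH1, by 0.64 ± 0.17 (edgeR adjusted p = 0.00607). The doses differ slightly. Of the 10 genes, 4 were higher and 1 lower with Aucklandiae, where 16.6% of all tested genes passed the test. FTL, at 9850 ± 669 CPM with Aucklandiae and 8120 ± 668 CPM with Polygalae (SD, n = 3 each), did not pass (log2 fold change 0.28 ± 0.15, edgeR adjusted p = 0.211, and 0.000206 to 0.216 over the alternative settings). HAMP was the lower gene, with 22.6, 23.6 and 19.1 CPM for Aucklandiae and 28.3, 29.5 and 28.9 CPM for Polygalae, and a log2 fold change of -0.41 ± 0.15 (edgeR adjusted p = 0.0492). That call for HAMP was lost when any of the 6 libraries was left out (log2 fold change -0.47 to -0.33). The difference between high and low dose was itself larger for Aucklandiae than for Polygalae in HMOX1, by 0.86 ± 0.09 on the log2 scale (edgeR adjusted p = 2.07e-09), where 6.82% of all tested genes passed this test of the difference.

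In the other groups HMOX1 lay closer to the vehicle. High-dose Longan had 60.3, 65.3 and 70.1 CPM of HMOX1, against 51.2, 57.2 and 58.5 CPM in the vehicle, and just missed the threshold (log2 fold change 0.23 ± 0.07, edgeR adjusted p = 0.0508). Its adjusted p ran from 0.0256 (DESeq2) to 0.28 (without the 4 libraries set apart by GC slope) over the alternative settings. HMOX1 was also called lower with high-dose Schisandrae than with high-dose Liriopis, with 48.2, 51.9 and 52.4 CPM against 58.7, 55.4 and 63.1 CPM and a log2 fold change of -0.22 ± 0.07 (edgeR adjusted p = 0.0244). That call was lost without high-dose Schisandrae replicate 1 (HMOX1 log2 fold change -0.18, adjusted p = 0.132) and without high-dose Liriopis replicate 1 (-0.22, 0.0581) or replicate 3 (-0.16, 0.178). With wortmannin HMOX1 had 46.5, 45.9 and 44.4 CPM, all below the vehicle, and fell by 0.29 ± 0.07 on the log2 scale (edgeR adjusted p = 0.000637). Across the 20 groups the mean of HMOX1 ran from 45.6 CPM with wortmannin to 107 CPM with high-dose Aucklandiae, a ratio of 2.35, and the next highest, high-dose Polygalae and high-dose Longan at 67.4 ± 0.21 and 65.2 ± 4.92 CPM (SD, n = 3 each), overlapped. In all, 2 of 19 groups set against the vehicle had HMOX1 called higher and 1 called lower, and each ferritin chain was called in 1 of 19. With wortmannin FTL had 5600, 5440 and 5150 CPM, all below the vehicle at 6470, 6430 and 6620 CPM, without passing the test. Over the alternative settings its adjusted p ran from 9.48e-05 to 0.221. In the compared groups alone edgeR called FTL (log2 fold change -0.27) and FTH1 (-0.13, adjusted p = 0.0209) lower with wortmannin.

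HAMP fell with the high doses of Schisandrae, Zizyphi and Longan, groups in which HMOX1 and the ferritin chains did not pass the test. HAMP had 7.77, 12 and 11.8 CPM with high-dose Schisandrae, against 21.7, 22.3 and 24.2 CPM in the vehicle. Every treated library was well below the vehicle, and replicate 1 was the lowest of all 60 libraries. The means were 10.5 ± 2.38 and 22.8 ± 1.3 CPM (SD, n = 3 each), a log2 fold change of -1.11 ± 0.17 (edgeR adjusted p = 1.36e-06). With high-dose Zizyphi HAMP had 11.1, 12.3 and 10.2 CPM, a log2 fold change of -1.02 ± 0.16 against the vehicle (edgeR adjusted p = 6.75e-05). With high-dose Longan it had 13.8, 16.3 and 15 CPM, a log2 fold change of -0.60 ± 0.16 (edgeR adjusted p = 0.0347). Without the 4 libraries set apart by GC slope, the log2 fold changes of HAMP were -1.14, -1.05 and -0.63 for Schisandrae, Zizyphi and Longan, and that for Longan no longer passed (adjusted p = 0.0727). The Longan call was also lost when any of its 6 libraries was left out, with log2 fold changes between -0.65 and -0.54. The 3 comparisons use the same vehicle libraries.

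These falls of HAMP appeared at the high dose. For Schisandrae HAMP averaged 22.8 ± 1.3 CPM in the vehicle, 20.9 ± 1.85 at the low dose, 21.7 ± 0.532 at the medium dose and 10.5 ± 2.38 at the high dose (SD, n = 3 each). For Zizyphi the low, medium and high doses had 22.3 ± 2.7, 21.7 ± 2.12 and 11.2 ± 1.06 CPM, and for Longan 25.4 ± 2.45, 23.5 ± 2.61 and 15 ± 1.24 CPM. In each extract the low- and medium-dose libraries overlapped, and the high-dose libraries lay below all of them. Against the low dose of the same set, HAMP fell by 0.99 ± 0.17 with Schisandrae and by 0.98 ± 0.16 with Zizyphi on the log2 scale (edgeR adjusted p = 1.6e-05 and 0.000366). For Longan the log2 difference of HAMP was -0.76 ± 0.15, with an edgeR adjusted p of 0.0791, and DESeq2 called it (-0.75, adjusted p = 0.00411). Without the 4 libraries set apart by GC slope edgeR called it narrowly too (-0.76, adjusted p = 0.0495). Over the alternative settings the adjusted p ran from 3.72e-16 to 0.125. Of the 10 genes, 3 had an unadjusted p under 0.05 in edgeR between the high and low dose of Longan, HMOX1, HAMP and ID1. Only 0.00605% of all tested genes passed edgeR's test between the high and low dose of Longan, and 0.351% between those of Zizyphi, where HAMP was the only one of the 10 genes called.

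Schisandrae and Liriopis share a set, and Liriopis left HAMP near the vehicle. HAMP had 7.77, 12 and 11.8 CPM with high-dose Schisandrae, against 21.9, 16.9 and 26.4 CPM with high-dose Liriopis. The groups did not overlap although the Liriopis libraries were spread. The log2 fold change of HAMP was -1.04 ± 0.17 (edgeR adjusted p = 5.53e-06). The high-against-low difference of HAMP was lower for Schisandrae than for Liriopis on the log2 scale (difference -1.0 ± 0.23, edgeR adjusted p = 0.00268), where 4.97% of all tested genes passed. Zizyphi and Longan, the other pair, had 11.2 ± 1.06 and 15 ± 1.24 CPM of HAMP at the high dose without overlap, but the log2 difference of -0.42 ± 0.17 had an edgeR adjusted p of 1 (0.00238 with no filter on low counts). That test called 0.0424% of all tested genes and none of the 10, of which HMOX1 and HAMP had an unadjusted p under 0.05 in edgeR, and DESeq2 called none.

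**Figure D2:**
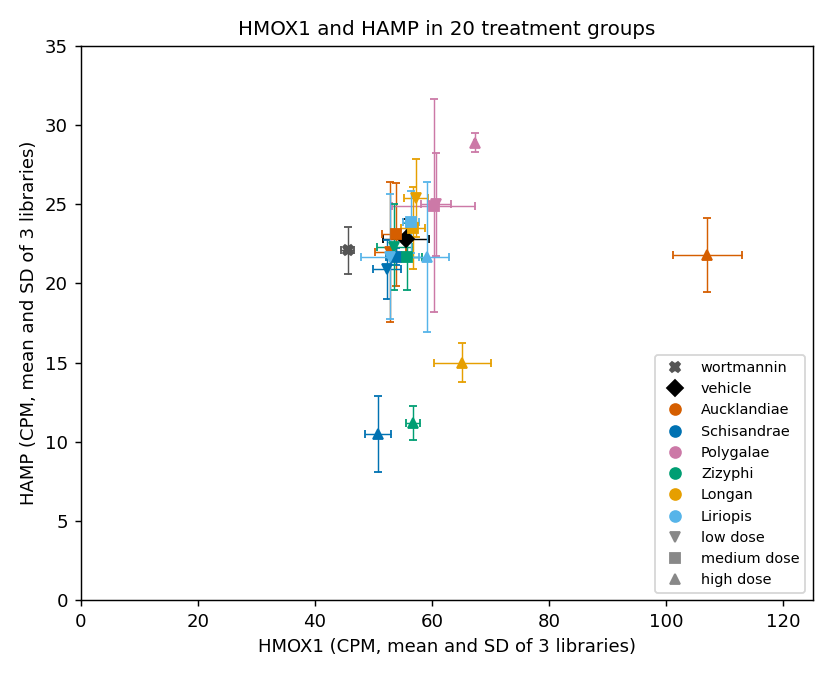
Mean HMOX1 (horizontal axis, CPM) against mean HAMP (vertical axis, CPM) in the 20 groups, with bars of 1 SD over 3 libraries. Colours are treatments and shapes are doses. High-dose Aucklandiae lies far to the right at 107 CPM of HMOX1 with HAMP at 21.8 CPM, and the high doses of Schisandrae, Zizyphi and Longan lie low, between 10.5 and 15 CPM of HAMP.

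Over the 20 group means, log2 HMOX1 and log2 HAMP had a Pearson r of 0.13, while HMOX1 had r = 0.76 with FTH1 and 0.78 with FTL, and the ferritin chains had r = 0.92 with each other. HAMP had r = 0.59 with ID1 and -0.50 with TFRC. These values describe 20 groups that share sets, and high-dose Aucklandiae weighs heavily in those with HMOX1.

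The promoter of HAMP is shown because it is where the BMP and interleukin 6 signals reach the gene that fell most. These are the 250 bases before the RefSeq start of HAMP, chr19:35282278-35282527, plus strand, on GRCh38.p14. That start lies inside the GENCODE span of HAMP given above, which begins further upstream, at base 35280716. Capitals mark the 2 motifs found, the letters GGCGCC, a core of BMP-responsive elements, from base -105 and a match to TTCNNNGAA, a STAT site, from base -93.
HAMP promoter: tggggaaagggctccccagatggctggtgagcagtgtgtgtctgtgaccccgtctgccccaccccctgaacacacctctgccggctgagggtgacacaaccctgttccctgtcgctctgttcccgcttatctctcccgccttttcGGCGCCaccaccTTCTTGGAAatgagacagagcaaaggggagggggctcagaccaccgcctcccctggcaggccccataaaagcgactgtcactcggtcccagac
The window searched, on both strands, ran from 250 bases before to 50 after each start. Of 35116 such windows 19.2% hold GGCGCC and 7.66% hold TTCNNNGAA. The letters TGACNNNGC, the core of the antioxidant response element, and CACGTG, an E-box, were searched too and are in 13.3% and 7.26% of windows. The window of ID1 held none of these 4 strings, and GGCGCC was also in the windows of TFRC, from base -201, and TF, from base -15. The table matched 7 of the 10 genes, and HMOX1, FTH1 and TFR2 were not searched. A match is a string of letters and not a measured binding site.

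ID1 (ENSG00000125968, chromosome 20, 31605283 to 31606515, plus strand), an inhibitor of helix-loop-helix factors and a standard BMP target, did not pass the test in the comparisons in which HAMP fell. It had 110, 129 and 136 CPM with high-dose Schisandrae, against 119, 132 and 132 CPM in the vehicle, values that overlapped (log2 fold change -0.03 ± 0.11, edgeR adjusted p = 0.902). With high-dose Zizyphi ID1 had 115, 118 and 115 CPM, just below the vehicle libraries, and did not pass the test (log2 fold change -0.14 ± 0.11, edgeR adjusted p = 0.527). Against the low doses ID1 was lower without overlap for both Zizyphi and Longan. It had 115, 118 and 115 CPM at the high dose of Zizyphi, against 143, 160 and 132 CPM at the low dose (log2 fold change -0.32 ± 0.11, edgeR adjusted p = 0.255). For Longan ID1 had 113, 130 and 132 CPM at the high dose, against 135, 157 and 167 CPM at the low dose (-0.29 ± 0.10, edgeR adjusted p = 1). With no filter on low counts, a fit of 35717 genes, both passed at nearly the same log2 fold changes (-0.34 and -0.29, adjusted p = 0.000143 and 0.00422). Of the 19 comparisons with the vehicle, ID1 was called in 1, low-dose Polygalae, with 158, 175 and 139 CPM and a log2 fold change of 0.30 ± 0.11 (edgeR adjusted p = 0.0408). Leaving out any of 5 of those 6 libraries, polygalae_low replicate 3 being the exception, ended that call (ID1 log2 fold change 0.22 to 0.38 over all 6). Without the 4 libraries set apart by GC slope ID1 was at 0.25, with an adjusted p of 0.141.

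TFRC (ENSG00000072274, chromosome 3, 196027183 to 196082189, minus strand), the receptor that brings in loaded transferrin, rose with high-dose Schisandrae and high-dose Aucklandiae. It had 505, 479 and 459 CPM with high-dose Schisandrae, against 366, 344 and 346 CPM in the vehicle. All 3 treated libraries were above every vehicle library, with a log2 fold change of 0.45 ± 0.07 (edgeR adjusted p = 1.87e-06). With high-dose Aucklandiae TFRC had 454, 431 and 453 CPM, a log2 fold change of 0.34 ± 0.07 (edgeR adjusted p = 0.000126). Relative to the vehicle, high-dose Schisandrae was therefore high in TFRC and low in HAMP, and high-dose Aucklandiae high in TFRC, HMOX1 and ferritin. Within the Aucklandiae set, TFRC averaged 409 ± 28.3, 437 ± 47.2 and 446 ± 12.8 CPM from low to high dose (SD, n = 3 each). Between the high and low dose TFRC did not pass the test (adjusted p from 0.172 to 0.439 over the edgeR and DESeq2 fits).

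In the comparison of high-dose Schisandrae with the vehicle, 1 of the 10 genes rose (TFRC) and 2 fell (HAMP and TFR2), where 15.7% of all tested genes passed the test (8.4% higher, 7.25% lower). Against low-dose Schisandrae, TFRC and SLC40A1 rose and HAMP and TFR2 fell, 4 of 10 genes where 9.99% of all tested genes passed. TFRC had 505, 479 and 459 CPM at the high dose, against 397, 418 and 401 CPM at the low dose, a log2 fold change of 0.25 ± 0.07 (edgeR adjusted p = 0.0109). That TFRC call was lost without high-dose replicate 1 (log2 fold change 0.21, adjusted p = 0.09) and without low-dose replicate 1 (0.24, 0.0552). Against high-dose Liriopis, TFRC was higher by 0.24 ± 0.07 on the log2 scale (edgeR adjusted p = 0.0115), and 5 of the 10 genes were called where 10.9% of all tested genes passed. This call was lost without high-dose Schisandrae replicate 1 (TFRC log2 fold change 0.21, adjusted p = 0.0902) and without high-dose Liriopis replicate 3 (0.21, 0.0839).

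The vehicle was the lowest of the 20 groups for TFRC, at 352 ± 11.9 CPM, and for TF, at 1820 ± 79 CPM (SD, n = 3 each). All 18 extract groups had a mean above the vehicle for both genes. TF (ENSG00000091513, chromosome 3, 133745956 to 133796640, plus strand), the plasma iron carrier secreted by hepatocytes, was called higher in 10 of 19 comparisons with the vehicle, and TFRC in 5. TF had 1730, 1830 and 1890 CPM in the vehicle, and its highest group, low-dose Polygalae, had 2260, 2320 and 2210 CPM (log2 fold change 0.32 ± 0.05, edgeR adjusted p = 5.09e-06). Since all 19 comparisons share these 3 vehicle libraries and cross sets, a low vehicle and a shared effect of the treatments cannot be told apart. Within sets TF was lower at the high than at the low dose of Aucklandiae and of Polygalae (log2 fold changes -0.21 ± 0.05 and -0.25 ± 0.05, edgeR adjusted p = 0.00129 and 0.000508). For Polygalae this was the only gene of the 10 called between high and low dose, where 3.93% of all tested genes passed. TF shares 191 exonic bases with the pseudogene TFP1 and 112 with SRPRB on the same strand, so part of its counts may belong to these genes.

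Over the 12 medium and low doses, 13 calls of the 10 genes against the vehicle passed the test: 7 for TF, 3 for TFRC and 1 each for TFR2, SLC11A2 and ID1. The share of all tested genes called was 4.45% with low-dose and 5.52% with medium-dose Aucklandiae. In the same order it was 0.0727% and 2.98% for Schisandrae, 15.6% and 11.7% for Polygalae, 2.09% and 0.702% for Zizyphi, 0.581% and 0.0666% for Longan, and 0.0303% at both doses of Liriopis. In fits of the compared groups alone the calls over all genes were far fewer for several of these, 93 in place of 911 for medium-dose and 38 in place of 735 for low-dose Aucklandiae, 216 in place of 1926 for medium-dose Polygalae and 16 in place of 346 for low-dose Zizyphi. The 13 calls became 4 without vehicle replicate 1, 4 without the 4 libraries set apart by GC slope, and 7 without vehicle replicate 2. None of the 10 genes passed edgeR's test against the vehicle at any Liriopis dose, where 0.0484% of all tested genes passed at the high dose. At an unadjusted p under 0.05 edgeR gave TFRC and TF at the high dose and TF at each lower dose, and DESeq2 called TF at the high dose.

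High-dose Zizyphi and high-dose Longan each had 2 of the 10 genes called against the vehicle, HAMP lower and TF higher, where 4.42% and 1.76% of all tested genes passed. TF had 2110, 2140 and 2110 CPM with high-dose Zizyphi, a log2 fold change of 0.22 ± 0.05 (edgeR adjusted p = 0.00342), and 2110, 1950 and 2120 CPM with high-dose Longan, 0.18 ± 0.05 (edgeR adjusted p = 0.0365). Both TF calls were lost without vehicle replicate 1 (0.19 with an adjusted p of 0.0584, and 0.15 with 0.251). The Longan call of TF was lost as well without vehicle replicate 2 and without high-dose Longan replicate 1 or replicate 3 (0.18, 0.16 and 0.16).

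The exporter gene SLC40A1 and the receptor gene TFR2 rose with wortmannin, and their means were higher there than in any other group. SLC40A1 (ENSG00000138449, chromosome 2, 189560579 to 189583758, minus strand), encoding ferroportin, had 104, 96.1 and 98.9 CPM with wortmannin, against 60.3, 53.7 and 58.8 CPM in the vehicle. The log2 fold change was 0.79 ± 0.05 (edgeR adjusted p = 6.62e-17). TFR2 (ENSG00000106327, chromosome 7, 100620416 to 100642779, minus strand) had 87.6, 86.5 and 91.3 CPM, against 53.8, 55 and 55.2 CPM in the vehicle, a log2 fold change of 0.69 ± 0.05 (edgeR adjusted p = 8.56e-15). For both genes every wortmannin library lay above all 57 others. HAMP, with 23.2, 22.6 and 20.4 CPM under wortmannin, overlapped the vehicle (log2 fold change -0.05 ± 0.15, edgeR adjusted p = 0.859). In all, 3 of the 10 genes rose (TF, TFR2 and SLC40A1) and 1 fell (HMOX1), where 32.6% of all tested genes passed the test (16.4% higher, 16.2% lower). The groups did not overlap for 8 of the 10, against 48% of all tested genes.

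SLC40A1 also rose with 2 extracts. It had 72, 73.1 and 72 CPM with high-dose Aucklandiae, a log2 fold change of 0.33 ± 0.05 against the vehicle (edgeR adjusted p = 2.26e-06). With high-dose Polygalae it had 68, 65.8 and 66.2 CPM, a log2 fold change of 0.21 ± 0.05 (edgeR adjusted p = 0.00228), a call that was lost without vehicle replicate 2 (SLC40A1 log2 fold change 0.16, adjusted p = 0.0508). In high-dose Schisandrae, with 64.6, 62.3 and 58 CPM, it overlapped the vehicle. SLC40A1 was called against low-dose Schisandrae and high-dose Liriopis (log2 fold changes 0.16 ± 0.05 and 0.15 ± 0.05, edgeR adjusted p = 0.0423 and 0.0452), and each of these calls was lost in 4 of the 6 fits that left out a library, with values between 0.12 and 0.20.

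TFR2 fell modestly with the high doses of Polygalae and Schisandrae. It had 49.2, 48.1 and 46 CPM with high-dose Polygalae, against 53.8, 55 and 55.2 CPM in the vehicle (log2 fold change -0.19 ± 0.05, edgeR adjusted p = 0.00682). With high-dose Schisandrae TFR2 had 46.7, 47.5 and 52.2 CPM (log2 fold change -0.17 ± 0.05, edgeR adjusted p = 0.0272), and that call was lost in 5 of the 6 fits that left out a library (-0.21 to -0.14). Within the set TFR2 was lower by 0.22 ± 0.05 on the log2 scale both against low-dose Schisandrae and against high-dose Liriopis (log2 fold changes -0.22 and -0.22, edgeR adjusted p = 0.00317 and 0.00327). SLC11A2 (ENSG00000110911, chromosome 12, 50979401 to 51028566, minus strand), the endosomal iron transporter DMT1, varied least, with group means between 63.4 and 75.9 CPM. Its high-dose Aucklandiae libraries had 77.7, 74.6 and 75.5 CPM, against 68, 66.4 and 66.7 CPM in the vehicle, a log2 fold change of 0.18 ± 0.05 (edgeR adjusted p = 0.002).

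**Figure D3:**
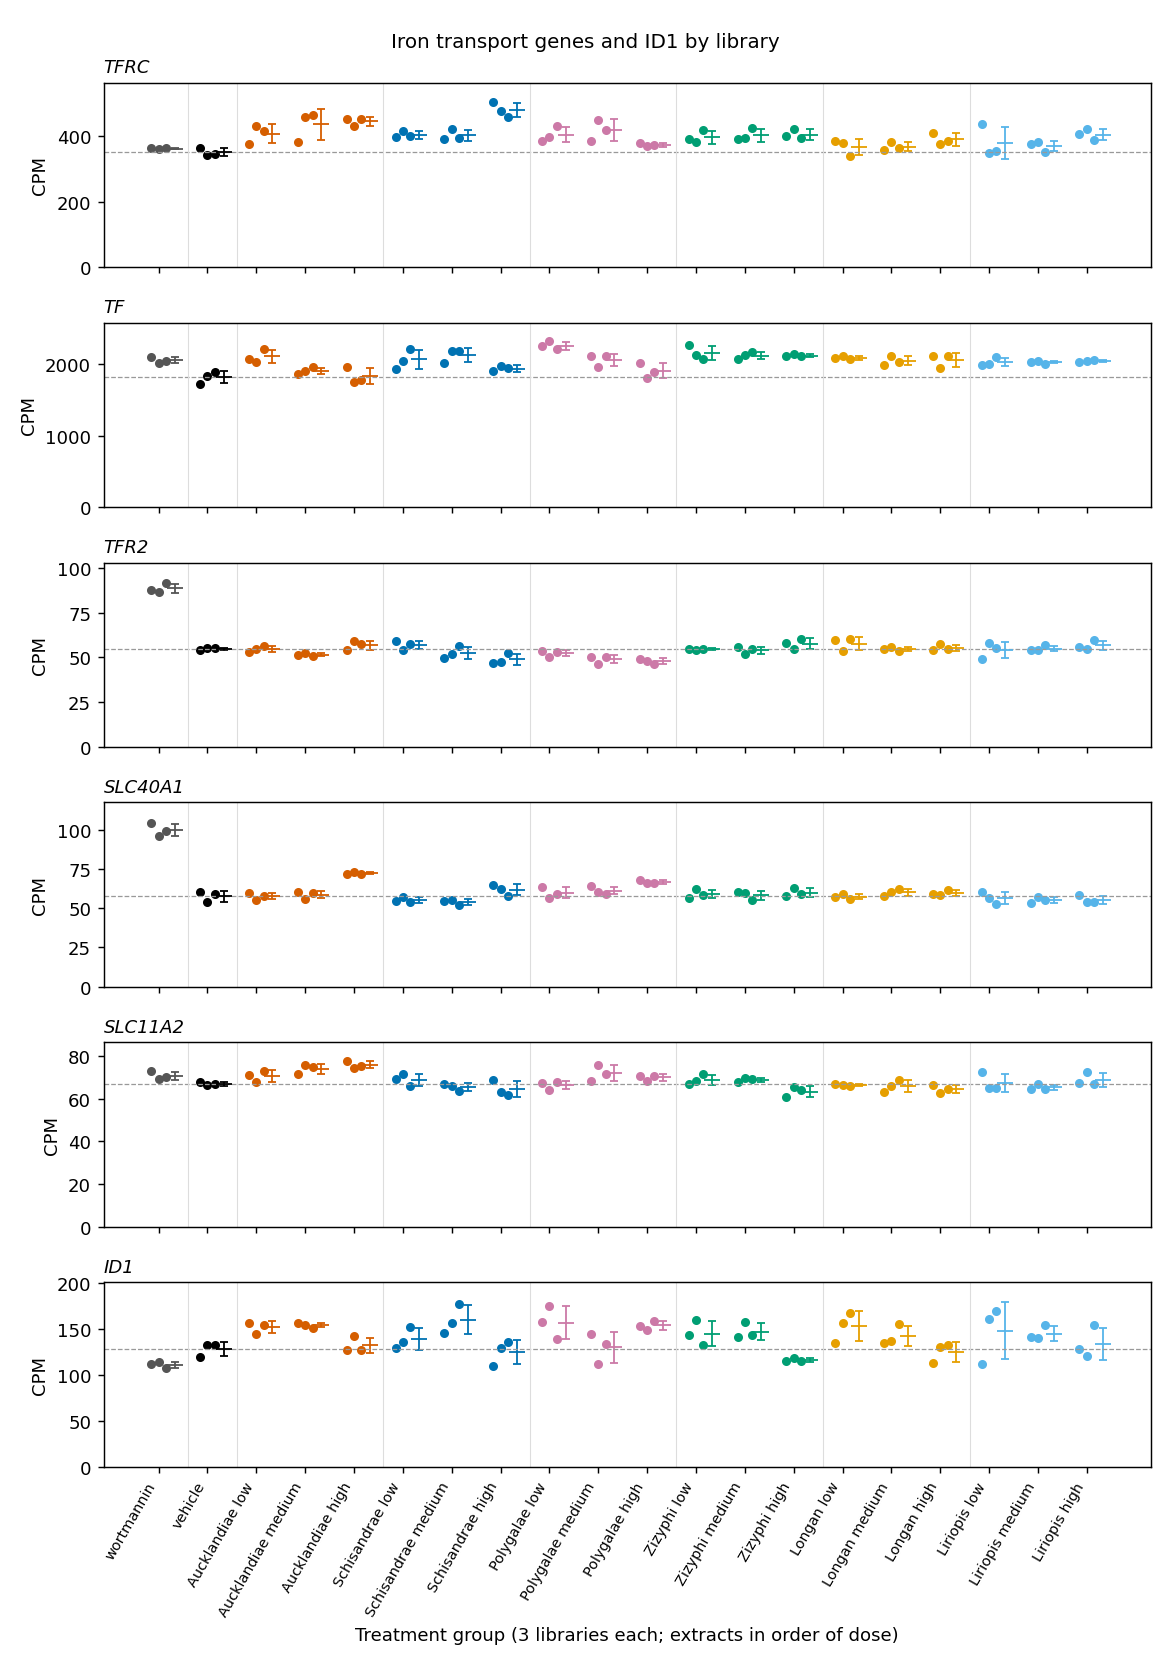
CPM (vertical axes, from 0) of TFRC, TF, TFR2, SLC40A1, SLC11A2 and ID1 in each of the 60 libraries by treatment group (horizontal axis), drawn as libraries with the mean ± SD of 3 and a dashed line at the vehicle mean. Wortmannin stands apart for TFR2 (88.5 CPM) and SLC40A1 (99.6 CPM), and the vehicle is lowest for TFRC and TF.

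**Figure D4:**
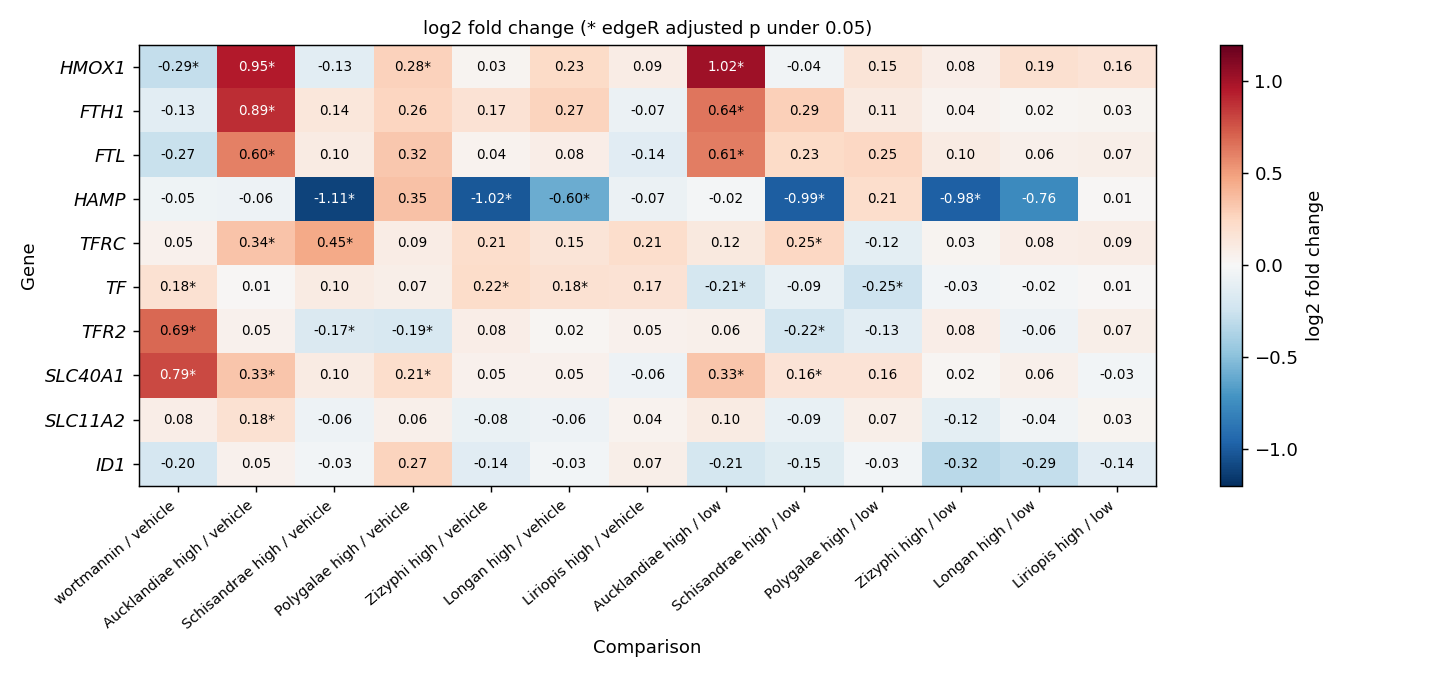
Log2 fold changes of the 10 genes (rows) in 13 comparisons (columns), wortmannin and the high doses against the vehicle and the high against the low dose of each extract, with a colour scale from blue (lower) to red (higher) and an asterisk where the edgeR adjusted p was under 0.05. The warm block of HMOX1, FTH1 and FTL lies in the Aucklandiae columns and the blue cells of HAMP in the Schisandrae, Zizyphi and Longan columns.

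Levels of different genes were compared in the vehicle per kilobase of the median annotated coding transcript, leaving out TF, whose annotated transcript is unusually long. FTL had 7410 and FTH1 1950 CPM per kilobase, far above the rest. ID1 followed with 115, TFRC with 70, HAMP with 36.7, HMOX1 with 30.5, TFR2 with 18.9, SLC11A2 with 17.8 and SLC40A1 with 16.7 CPM per kilobase.

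Other genes of the pathway were read from lists of known roles, also drawn up with earlier results of these data known. In comparisons with the vehicle their counts stand beside 26.1% of all tested genes called for high-dose Aucklandiae, 15.7% for Schisandrae and 20.1% for Polygalae, and in the high against the low dose beside 14.9%, 9.99% and 3.93%. The vehicle was the lowest of the 20 groups for 4 of the 27 genes named from these lists (PPOX, BLVRB, HFE and KEAP1) and the highest for 4 (NFE2L2, SMAD1, SLC25A37 and, in a tie, FBXL5), and there a low or high vehicle and an effect of the extract cannot be told apart by the comparison with the vehicle. The same limit applies to CPOX and GLRX5, where only wortmannin lay beyond the vehicle. Among others, the vehicle was also near the low end for NFS1 (18 groups higher), ABCG2 and IL6R (17 each). Of 8 tested enzymes of heme synthesis, 6 rose and none fell with high-dose Aucklandiae against the vehicle, where 26.1% of all tested genes passed (median log2 fold change 0.26, against 0.000 for all tested genes). Against the low dose 2 of the 8 rose and none fell, with a median of 0.04. ALAS1, the rate-limiting first enzyme in the liver, averaged 70.1 ± 3.88 CPM and 41.9 ± 0.986 CPM in the vehicle (SD, n = 3 each), a log2 fold change of 0.74 ± 0.05 (edgeR adjusted p = 1.07e-16). FECH, which inserts iron into heme, averaged 33.9 ± 0.921 and 22.9 ± 0.803 CPM, a log2 fold change of 0.57 ± 0.06 (edgeR adjusted p = 3.54e-11). These 2 were the ones that also rose against low-dose Aucklandiae, by 0.79 ± 0.05 for ALAS1 and 0.53 ± 0.06 for FECH on the log2 scale. With high-dose Schisandrae 1 of the 8 enzymes rose, CPOX (log2 fold change 0.25), and with high-dose Polygalae 2 rose, among them PPOX (0.41). Neither CPOX nor PPOX passed the test between the high and low dose of these extracts (log2 fold changes 0.12 and -0.08, edgeR adjusted p = 0.185 and 0.778).

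Of 10 genes of heme breakdown and transport, 6 rose and none fell with high-dose Aucklandiae against the vehicle, where 26.1% of all tested genes passed (median log2 fold change 0.26). The low dose as the comparison gave 4 that rose and 1 that fell (median 0.15). BLVRB, a biliverdin reductase that also reduces flavins, averaged 16.7 ± 2.1 CPM and 7.95 ± 0.182 CPM in the vehicle (SD, n = 3 each), a log2 fold change of 1.07 ± 0.13 (edgeR adjusted p = 1.14e-08). ABCG2, a transporter that exports porphyrins among many compounds, rose by 0.74 ± 0.09. Both also rose against the low dose (log2 fold changes 0.89 ± 0.13 and 0.50 ± 0.09). With high-dose Schisandrae 1 of the 10 rose and 3 fell, both against the vehicle and against the low dose (median log2 fold changes 0.07 and 0.05), where 15.7% and 9.99% of all tested genes passed. The plasma scavengers of heme and haemoglobin fell: HPX, hemopexin, averaged 8.34 ± 1.43 CPM and 13 ± 1.19 CPM in the vehicle (log2 fold change -0.63 ± 0.10, edgeR adjusted p = 6.48e-06), and HP, haptoglobin, 103 ± 2.06 and 157 ± 5.32 CPM (-0.60 ± 0.06, edgeR adjusted p = 7.43e-11). With high-dose Polygalae 4 of the 10 rose against the vehicle, among them BLVRB (log2 fold change 0.49 ± 0.13), and HPX fell (-0.47 ± 0.10). Against the low dose of Polygalae 1 rose and 1 fell, and BLVRB had a log2 fold change of 0.02 ± 0.13 (edgeR adjusted p = 0.978).

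Of 9 tested genes of iron reduction, uptake and storage, 4 rose and none fell with high-dose Aucklandiae against the vehicle, where 26.1% of all tested genes passed (median log2 fold change 0.18). When set against the low dose, 1 rose, STEAP2, and none fell (median 0.02). STEAP2, a ferrireductase, rose by 0.40 ± 0.10 and CP, the ferroxidase ceruloplasmin, by 0.28 ± 0.07. CP was the only one of the 9 that rose with high-dose Schisandrae, with 169 ± 4.84 CPM and 97.7 ± 9.75 CPM in the vehicle (SD, n = 3 each), a log2 fold change of 0.79 ± 0.07 (edgeR adjusted p = 5.38e-12). With high-dose Polygalae CP fell by 0.20 ± 0.07 on the log2 scale (edgeR adjusted p = 0.0396), and its libraries overlapped those of the vehicle. Of the 3 iron regulatory genes, ACO1, the enzyme that becomes iron regulatory protein 1 without its cluster, rose with high-dose Aucklandiae (0.26 ± 0.06), and FBXL5, the ligase that marks iron regulatory protein 2 for breakdown, fell with high-dose Schisandrae (-0.23 ± 0.07). Relative to the low dose ACO1 did not pass the test for Aucklandiae (0.15 ± 0.06, edgeR adjusted p = 0.094), and ACO1 and FBXL5 both fell for Schisandrae (-0.21 ± 0.06 and -0.21 ± 0.07).

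In the BMP and SMAD list, 18 of 21 genes were tested, with 3 higher and 3 lower with high-dose Aucklandiae, 2 higher and 3 lower with high-dose Schisandrae, and 1 higher and 4 lower with high-dose Polygalae. In these comparisons with the vehicle 26.1%, 15.7% and 20.1% of all tested genes passed. The medians of the log2 fold changes were -0.05, -0.14 and -0.03. Against the low dose 2 rose for Aucklandiae, 2 rose and 2 fell for Schisandrae, and 1 fell for Polygalae. The coreceptor gene HJV and the ligand genes BMP2 and BMP6 did not have enough counts for a test. With high-dose Schisandrae ID2, a BMP target like ID1, averaged 91.8 ± 4.91 CPM and 124 ± 2.56 CPM in the vehicle (SD, n = 3 each), a log2 fold change of -0.43 ± 0.12 (edgeR adjusted p = 0.00743), and SMAD1, a carrier of the BMP signal, fell by 0.32 ± 0.08 on the log2 scale. ID2 fell against the low dose too (-0.41 ± 0.12), while SMAD1 did not pass the test (-0.13 ± 0.08, edgeR adjusted p = 0.422). TMPRSS6, the protease that holds HAMP down, averaged 3.43 ± 0.606 CPM with high-dose Polygalae and 5.18 ± 0.467 CPM in the vehicle, a log2 fold change of -0.58 ± 0.13 (edgeR adjusted p = 0.00136). With high-dose Aucklandiae HFE, which binds TFR2 and TFRC, rose by 0.48 ± 0.11, and ACVR1, a BMP receptor, by 0.44 ± 0.08. ACVR1 also rose against the low dose (0.48 ± 0.08) and HFE did not pass the test (0.24 ± 0.11, edgeR adjusted p = 0.134).

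The interleukin 6 list holds 7 tested genes, of which IL6R was the only one called with high-dose Aucklandiae against the vehicle. IL6R, the receptor, averaged 60.4 ± 1.32 CPM with high-dose Aucklandiae, 41.1 ± 0.0835 with high-dose Schisandrae, 38.2 ± 0.716 with high-dose Polygalae and 23.3 ± 1.33 CPM in the vehicle (SD, n = 3 each). Its log2 fold changes were 1.37 ± 0.07, 0.82 ± 0.07 and 0.71 ± 0.07 (edgeR adjusted p = 2.74e-22, 1.04e-13 and 9.84e-12). At the low doses IL6R averaged 24.7 ± 3.5 CPM with Aucklandiae, 23 ± 0.601 with Schisandrae and 32 ± 0.522 CPM with Polygalae. In the high-dose groups HAMP overlapped the vehicle (Aucklandiae), lay below it (Schisandrae) and lay above it without passing the test (Polygalae). CEBPA, a hepatocyte factor that activates HAMP, averaged 98.7 ± 5.72 CPM with high-dose Schisandrae and 131 ± 15.8 CPM in the vehicle, a log2 fold change of -0.41 ± 0.08 (edgeR adjusted p = 0.000219). With high-dose Polygalae CEBPA rose by 0.23 ± 0.08 against the vehicle (edgeR adjusted p = 0.0358), with overlapping libraries. From low to high dose of Polygalae CEBPA averaged 165 ± 10, 161 ± 7.23 and 154 ± 11.4 CPM, so the high dose was the lowest of these. The vehicle mean of CEBPA was below that of 17 other groups and above that of 2.

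Of the 6 regulators of HMOX1, 3 rose and 1 fell with high-dose Aucklandiae, 5 rose and 1 fell with high-dose Schisandrae, and 4 rose with high-dose Polygalae, against the vehicle, with median log2 fold changes of 0.33, 0.32 and 0.37. The shares of all tested genes called were 26.1%, 15.7% and 20.1%. Fewer passed against the low dose, 1 higher and 1 lower for Aucklandiae and 2 higher for Schisandrae (medians 0.22 and 0.21). For Polygalae the median against the low dose was 0.14, and MAFG and MAFF did not pass (edgeR adjusted p = 0.339 and 0.209). NFE2L2, encoding the activator NRF2, averaged 168 ± 1.64 CPM with high-dose Aucklandiae and 230 ± 17.9 CPM in the vehicle (SD, n = 3 each), a log2 fold change of -0.45 ± 0.07 (edgeR adjusted p = 9.91e-07). KEAP1, which marks NRF2 for breakdown, rose there by 0.54 ± 0.06. Both calls were also made against the low dose (log2 fold changes -0.38 for NFE2L2 and 0.30 for KEAP1). The small MAF partners rose in part: MAFF by 0.76 ± 0.10 and MAFK by 0.49 ± 0.14 with high-dose Schisandrae, and MAFG by 0.54 ± 0.11 and MAFF by 0.47 ± 0.10 with high-dose Polygalae. Of these only MAFF with Schisandrae passed against the low dose too (0.68). In the list of mitochondrial iron and iron-sulfur cluster genes, 1 of 13 was called with high-dose Aucklandiae. This was the cysteine desulfurase NFS1, which rose (0.29 ± 0.05). GLRX5, a glutaredoxin of cluster assembly, fell with high-dose Schisandrae, as the only one of the list called there, and with high-dose Polygalae (log2 fold changes -0.41 ± 0.09 and -0.25 ± 0.09). SLC25A37, mitoferrin 1, fell with high-dose Polygalae (-0.16 ± 0.05). Between the high and low dose these did not pass edgeR's test: NFS1 had a log2 fold change of 0.13 ± 0.05 for Aucklandiae (adjusted p = 0.0628), GLRX5 -0.20 ± 0.09 for Schisandrae and -0.10 ± 0.09 for Polygalae (adjusted p = 0.216 and 0.709), and SLC25A37 -0.01 ± 0.05 for Polygalae (adjusted p = 0.961).

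**Figure D5:**
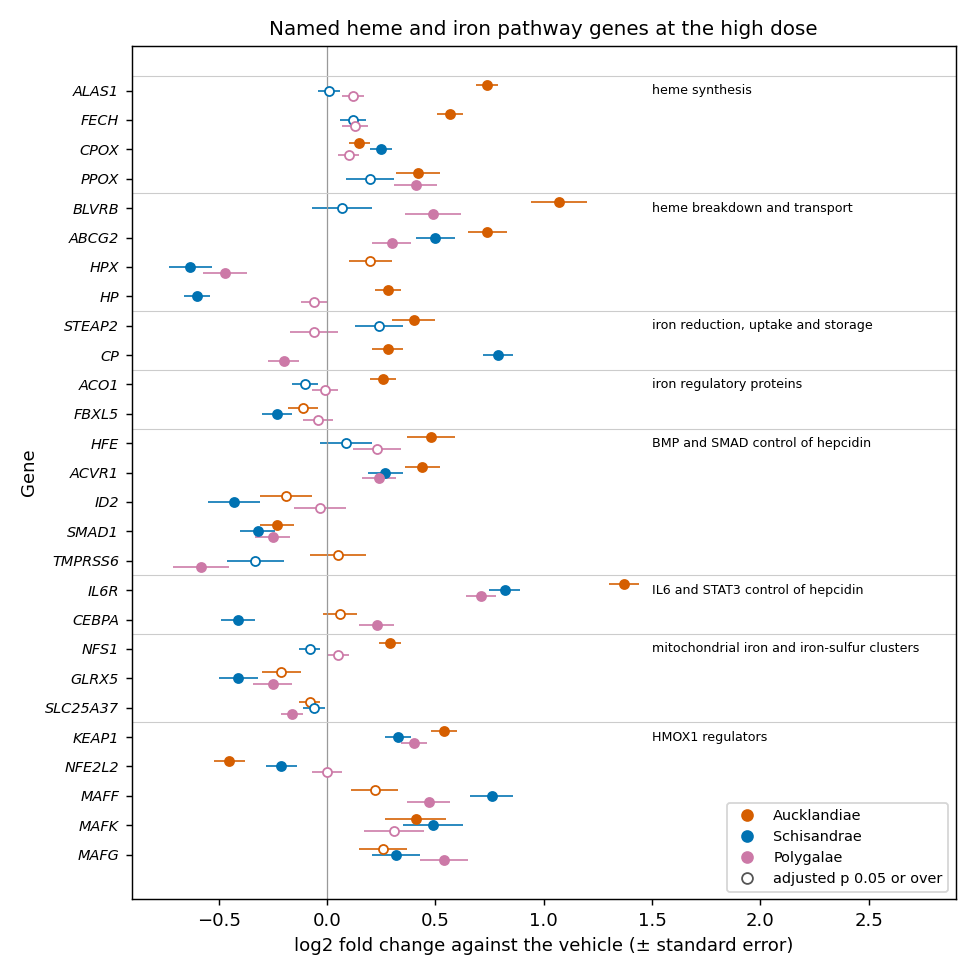
Log2 fold change against the vehicle (horizontal axis, ± standard error) of 27 named genes of heme and iron pathways (rows, grouped by list) for the high doses of Aucklandiae, Schisandrae and Polygalae. Filled points passed the edgeR test at an adjusted p under 0.05. IL6R (1.37) and BLVRB (1.07) with Aucklandiae lie farthest to the right, and HPX (-0.63) and HP (-0.60) with Schisandrae farthest to the left.

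The genes whose group means were most like those of HMOX1, by Pearson r over the 20 groups on the log2 scale, were PRR5 (0.901), ABCB6 (0.89), TTC39C (0.883), AIFM2 (0.863) and TMBIM1 (0.853). ABCB6 ran from 80 to 160 CPM over the groups. Most like TFRC were GPI (0.883), GALNT10 (0.877), WWP1 (0.866), ENO1 (0.84) and ERMP1 (0.833). Most like HAMP were SMAD7 (0.908), CXXC5 (0.907), MTERF4 (0.9), ENSG00000227782 (0.831) and FZD7 (0.828). SMAD7, an inhibitor of the SMAD signal, ran from 22.2 to 30.2 CPM over the groups, and ENSG00000227782 lay between 0.208 and 0.389 CPM, so its r rests on few counts. These r values are descriptions over 20 groups that share sets.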

How the data were processed

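The authors deposited RSEM-type expected counts per gene for 60 libraries, estimated numbers of reads that need not be whole. Per the submitters' processing notes, reads were handled with RSEM 1.3.3, STAR 2.7.3a, Trim Galore 0.6.5 and FastQC 0.11.9, with no role or order stated, and the builds hg38 and GRCh38. Neither the strand setting nor the annotation release is given in the sources used here. Per the labels' protocols, RNA went into a directional mRNA library kit.

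These values were rounded before any test. Genes were filtered with filterByExpr, which left 16517 holding all but 0.0532% of counts, and libraries were scaled by TMM (factors 0.92 to 1.08). An edgeR quasi-likelihood model with 1 term per group was fitted to all 60 libraries (edgeR 4.0.16 with limma 3.58.1 in R 4.3.3). The 31 comparisons were tested 2-sided, with Benjamini-Hochberg adjustment over all tested genes and a threshold of 0.05. CPM values are TMM-scaled and given as mean ± SD of 3 libraries. An exact permutation test of 3 against 3 libraries cannot go below p = 0.1, so single genes were tested only in this model and the alternatives below. The edgeR step was tried on simulated counts for the vehicle and high-dose Aucklandiae alone, which does not check the fit to all 60 libraries. Alternatives were RLE scaling, no filter, a stricter filter, a replicate block, DESeq2 1.42.0, the compared groups alone, leaving out each library, and leaving out 4 libraries. The fit with no filter kept 35717 genes. In the extract comparisons it gave the low ends of the adjusted p ranges printed for FTH1, FTL and HAMP over the alternative settings. Its small values beside little-changed log2 fold changes are not read as added support.

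The labels do not say that replicates came from separate cultures, so p-values measure only the spread between these samples. Replicate numbers are in the labels, which do not say what they share. In 3 comparisons all 3 same-numbered pairs deviated together with r over 0.1. These were Zizyphi at its high against its low dose (r = 0.38, 0.58 and 0.21), Schisandrae likewise (r = 0.44, 0.17 and 0.38), and the low dose of Liriopis set against the vehicle (r = 0.56, 0.34 and 0.25), and there the block changed no call of the 10 genes.

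The choice of the 10 genes, of the pathway lists and of the genes to name was made with earlier results of these data known. Marker levels are CPM without TMM factors. A pathway gene and a marker that the lists hold are not reported here by name. Named pathway genes are, per list, the called genes with the 2 largest absolute log2 fold changes in each of high-dose Aucklandiae, Schisandrae and Polygalae against the vehicle, and the 5 genes with the highest r to HMOX1, TFRC and HAMP.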

Additional observations from a re-analysis of the deposited data

Results flagged for a closer look

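For 3 results a test of the difference between extracts passed, comparing the change from low to high dose of extracts that share a code set. HMOX1 changed more with Aucklandiae than with Polygalae, by a log2 difference of 0.86 (edgeR adjusted p = 2.07e-09). HAMP changed by -1.0 on the log2 scale with Schisandrae relative to Liriopis (edgeR adjusted p = 0.00268), and TFR2 by -0.29 (edgeR adjusted p = 0.0112). The TFR2 result was lost without low-dose Liriopis replicate 1, one of the 4 libraries set apart by GC slope (log2 difference -0.22, adjusted p = 0.0682).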

How the results depend on the processing

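No called log2 fold change of the 10 genes changed sign under the alternatives run. Calls against the vehicle at the high dose were 16, with 12 to 16 when a library was left out; wortmannin gave 4 (4 to 4), high against low dose 11 (9 to 12), extracts of a set 10 (7 to 10) and differences between dose effects 3 (2 to 3). At the medium and low doses 13 calls became 4 in a fit of the compared groups alone and 4 without the 4 libraries set apart by GC slope (4 to 14 leaving out a library). The compared groups alone gave 7 calls for wortmannin, with FTH1, FTL and ID1 added as lower, and no filter gave 17 for high against low dose.

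A fit of the compared groups alone gained 13 calls and lost 18. Gains included FTL, FTH1 and HAMP for high Polygalae (0.31, 0.25 and 0.34) and FTL for Aucklandiae against Polygalae (0.29), and these were among the losses: HMOX1 and SLC40A1 for Schisandrae against Liriopis (-0.21 and 0.16), SLC40A1 for high against low Schisandrae (0.16), TF for high against low Aucklandiae (-0.21) and for high Longan and high Zizyphi (0.18 and 0.22), and TFR2 for high Schisandrae (-0.17) and its dose effect (-0.28). With no filter 32 calls were gained and 10 lost. Gains included FTH1 and FTL for medium Aucklandiae (0.50 and 0.30) and for the Aucklandiae minus Polygalae dose effect (0.51 and 0.34, adjusted p = 1.73e-06 and 0.00413), FTL for high Polygalae (0.32) and HAMP for Zizyphi against Longan (-0.42), and the losses included SLC11A2 for high Aucklandiae (0.18), SLC40A1 for Schisandrae against Liriopis and against its low dose (0.15 and 0.16), TF for high Longan (0.19), and TFR2 for its dose effect (-0.29), high Polygalae (-0.19) and high Schisandrae (-0.17). RLE scaling and the replicate block over all libraries each ended HAMP for Aucklandiae against Polygalae (-0.41 and -0.41). Without the 4 libraries HAMP (-0.63) and TF (0.15) for high Longan and TF for high Zizyphi (0.19) were lost, and HAMP for high against low Longan (-0.76) was gained.

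Same-numbered libraries share only a number in the other comparisons. There the replicate block within code set called HAMP for high against low Longan (-0.76, adjusted p = 0.00722). Against the vehicle it called HAMP (0.52), FTH1 (0.45) and FTL (0.48) for high Polygalae, and FTH1 (0.68) and FTL (0.44) for medium Aucklandiae. This block had no term for the vehicle. In it an extract group stands at the level of replicate 1 of its set, and the vehicle at its mean. Its log2 fold changes against the vehicle are shifted by that offset, so calls gained there are not read as results. Leaving out each library gave ranges of -0.26 to -0.16 for HMOX1, 0.12 to 0.20 for SLC40A1 and 0.21 to 0.28 for TFRC in Schisandrae against Liriopis, 0.21 to 0.28 for TFRC and 0.12 to 0.20 for SLC40A1 in high against low Schisandrae, 0.51 to 0.83 for FTH1 in high against low Aucklandiae, -0.47 to -0.33 for HAMP in Aucklandiae against Polygalae, -0.65 to -0.54 for HAMP and 0.15 to 0.22 for TF in high Longan, 0.19 to 0.24 for TF in high Zizyphi, 0.16 to 0.25 for SLC40A1 in high Polygalae, -0.21 to -0.14 for TFR2 in high Schisandrae and -0.34 to -0.22 for its dose effect. Apart from the shift in the block within code set, the cause of these changes was not tested.

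The share of all tested genes called depends on the setting too: 730 genes for high Zizyphi became 233 in the compared groups alone and 231 without the 4 libraries, and 291 for high Longan became 21 and 74. In the compared groups alone 2462 genes for high against low Aucklandiae became 1596, 58 for Zizyphi became 3, 821 for the Schisandrae minus Liriopis dose effect became 478, and 2737 for Aucklandiae against Polygalae became 4148.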
